A study of Homo sapiens with 9 samples.

Results

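The genes described here are 9 well-known long noncoding RNAs (lncRNAs) of nuclear bodies, chromatin or leukaemia, namely MALAT1, NEAT1, MIAT, KCNQ1OT1, HOTAIRM1, TUG1, NORAD, PVT1 and MIR17HG. They were chosen by name, and each symbol matched 1 row of the 56541 genes in the table. RNA came from MOLM-13, a human acute myeloid leukaemia cell line, in 3 groups of 3 libraries. The control group, shCONTROL, carried a hairpin without a target named in the labels, and the knock-down group, shBCLAF1, one directed at BCLAF1. The RIP group (RNA immunoprecipitation) is RNA recovered with BCLAF1 from shCONTROL cells. How many hairpins or clones were used is not given in the sources used here. BCLAF1 is a nuclear RNA-binding protein. Cells of all 3 groups, the controls included, had been given doxycycline at 200 ng/µL for 4 days. No mock precipitation is named by the labels, so the RIP was read against shCONTROL RNA-seq, and recovery with BCLAF1 cannot be told apart from the background of a precipitation. The labels do not say whether replicates were separate cultures, and p-values then measure only the spread between these libraries, which may be technical.

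Long noncoding RNAs act as RNA rather than through a protein. MALAT1 lies in nuclear speckles, domains rich in splicing factors, and NEAT1 is the scaffold of paraspeckles, bodies built around the proteins NONO and SFPQ. KCNQ1OT1 silences neighbouring imprinted genes in cis, HOTAIRM1 is a myeloid transcript of the HOXA cluster, NORAD is a cytoplasmic decoy for RNA-binding proteins, PVT1 neighbours the oncogene MYC, and MIR17HG is the precursor of the oncogenic miR-17-92 microRNA cluster. MIAT forms nuclear domains of its own, and TUG1 has been tied to Polycomb repression.

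MIR17HG (chr13:91347687-91354577, RefSeq GRCh38.p14, plus strand) carries 6 microRNA hairpins, and the mature arms usually taken as the active ones are shown because they are what this transcript is made for. Capitals mark the seed, bases 2 to 8 from the 5′ end, which pairs with target mRNAs.
hsa-miR-17-5p: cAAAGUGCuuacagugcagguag
hsa-miR-20a-5p: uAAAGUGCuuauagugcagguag
hsa-miR-18a-5p: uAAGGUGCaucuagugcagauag
hsa-miR-19a-3p: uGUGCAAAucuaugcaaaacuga
hsa-miR-19b-3p: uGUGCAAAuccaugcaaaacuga
hsa-miR-92a-3p: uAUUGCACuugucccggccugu
The 6 sequences hold 4 seeds, since miR-17-5p and miR-20a-5p share AAAGUGC and miR-19a-3p and miR-19b-3p share GUGCAAA. They begin 2931 to 3674 bases downstream of the annotated start of MIR17HG. The libraries measured the host transcript, and levels of the mature microRNAs were not analysed here.

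Promoters were shown for 3 members that passed a test in these data, as windows from 250 bases before to 50 bases after a RefSeq start site (GRCh38.p14), written 5′ to 3′ on the gene's own strand. MALAT1 has 2 listed starts on the plus strand, at windows chr11:65497488-65497787 and chr11:65498795-65499094. The window of MIR17HG is chr13:91347437-91347736 on the plus strand, and that of NORAD chr20:36050911-36051210 on the minus strand. Capitals mark CACGTG, the palindromic E-box that MYC-MAX dimers bind, and a sequence with no capitals holds none.
MALAT1 start 1: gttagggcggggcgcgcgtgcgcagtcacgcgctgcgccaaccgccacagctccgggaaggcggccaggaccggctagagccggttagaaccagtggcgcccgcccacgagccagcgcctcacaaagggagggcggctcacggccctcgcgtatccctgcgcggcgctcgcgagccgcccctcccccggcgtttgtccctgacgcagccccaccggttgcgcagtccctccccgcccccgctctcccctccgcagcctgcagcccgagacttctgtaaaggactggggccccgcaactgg
MALAT1 start 2: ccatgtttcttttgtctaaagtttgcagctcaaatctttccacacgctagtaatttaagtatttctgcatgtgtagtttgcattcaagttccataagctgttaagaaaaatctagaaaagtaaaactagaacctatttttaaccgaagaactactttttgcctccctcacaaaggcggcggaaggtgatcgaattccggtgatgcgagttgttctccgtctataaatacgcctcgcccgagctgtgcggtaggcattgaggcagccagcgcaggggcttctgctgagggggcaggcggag
MIR17HG: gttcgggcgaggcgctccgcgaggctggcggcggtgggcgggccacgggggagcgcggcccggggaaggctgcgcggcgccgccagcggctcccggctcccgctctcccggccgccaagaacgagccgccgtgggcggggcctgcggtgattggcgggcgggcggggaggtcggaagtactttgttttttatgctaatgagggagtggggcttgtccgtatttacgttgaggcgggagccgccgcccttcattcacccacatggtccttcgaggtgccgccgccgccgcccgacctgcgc
NORAD: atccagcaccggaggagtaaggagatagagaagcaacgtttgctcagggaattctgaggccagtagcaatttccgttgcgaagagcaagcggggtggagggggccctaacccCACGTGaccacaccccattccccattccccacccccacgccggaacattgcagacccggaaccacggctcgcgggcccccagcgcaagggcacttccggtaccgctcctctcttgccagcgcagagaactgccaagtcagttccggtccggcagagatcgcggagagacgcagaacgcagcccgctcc
The promoter table held 6 windows of 5 members, and CACGTG occurred in the windows of NORAD and TUG1, ending 133 and 72 bases before the start. Of all 35116 promoter windows of this length, 7.26% held it. A match describes the letters of a window and does not show that a factor was bound.

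The libraries held 25819144 to 36635268 estimated counts, and 3 counts, taken as the limit that a count of 0 allows, equalled 0.0819 to 0.116 CPM (the count scaled to a common library size). All 9 libraries carry the same batch label. As a check of the labels, BCLAF1 fell from 322 ± 8.41 to 113 ± 12.5 CPM after knock-down (means ± SD of 3 libraries; log2 fold change -1.50, SE 0.08, edgeR adjusted p 2.06e-04). Its own mRNA was higher in the RIP, at 1079 ± 57.4 CPM (1.74, SE 0.10, edgeR adjusted p 2.19e-04). The paralogue THRAP3 had 0.08 after knock-down (edgeR adjusted p 0.671) and 0.95 in the RIP (edgeR adjusted p 7.00e-04). Of 11 markers of acute myeloid leukaemia cells, 9 had counts, with CD14 and KIT at 0 in all 9 libraries, and their summed level was 1672 to 1775 CPM in the controls, 3416 to 3820 after knock-down and 1356 to 1455 in RIP libraries. Of 4 T cell markers, CD3E and CD8A were at 0 throughout and CD3D and CD4 had counts in every library. Their summed level, most of it from CD4, was 91.5 to 101 CPM over the RNA-seq libraries and 33.6 to 45.3 in RIP libraries. Summed erythroid markers were at 0 in all RNA-seq libraries and at 1.24 to 60.3 CPM in the RIP, all of it from HBA1 and HBA2, with HBB at 0. All libraries came from the MOLM-13 line, so these sums describe the RNA of marker genes and do not count cells of other types. Within the line, fewer cells with a marker and less of its RNA per cell cannot be told apart in bulk RNA.

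After knock-down of BCLAF1, MALAT1, PVT1 and MIR17HG fell and HOTAIRM1 rose, while NEAT1, TUG1 and NORAD did not pass the test. MALAT1 changed most, to 53.2% of the control. MIAT and KCNQ1OT1 were at or near 0 and did not pass the filter on low counts, so 7 of the 9 genes were tested. With a threshold of 0.05 on the p adjusted over all genes (edgeR, quasi-likelihood), 1 of those 7 was higher and 3 were lower, beside 15.5% of all 16961 tested genes called higher and 16.9% called lower (32.3% in either direction). In 2 the knock-down libraries lay above all controls and in 3 below all, beside 24.2% and 25.1% of all genes. None passed with a log2 fold change of 1 or more in size, beside 1.81% of all genes higher and 2.29% lower by that much. The median log2 fold change was -0.29 over the 7 genes and 0.02 over all genes tested.

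In the RIP, NORAD was enriched and MIR17HG depleted relative to shCONTROL RNA-seq, and MALAT1 did not pass, with values on both sides of its controls. HOTAIRM1 was lower in every RIP library than in any control library, with an adjusted p just above the threshold. By the same threshold, 1 of the 7 was higher and 1 lower, beside 24.6% and 24.7% of the 16727 genes tested (49.2% in either direction). In 1 the RIP libraries lay above all controls and in 2 below all, beside 31.8% and 35.2% of all genes. With a log2 fold change of 1 or more, 0 were higher and 1 lower, beside 11.1% and 13.6%. The median log2 fold change was -0.16 over the 7 genes and -0.05 over all genes. Both comparisons use the same shCONTROL libraries.

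**Figure D1:**
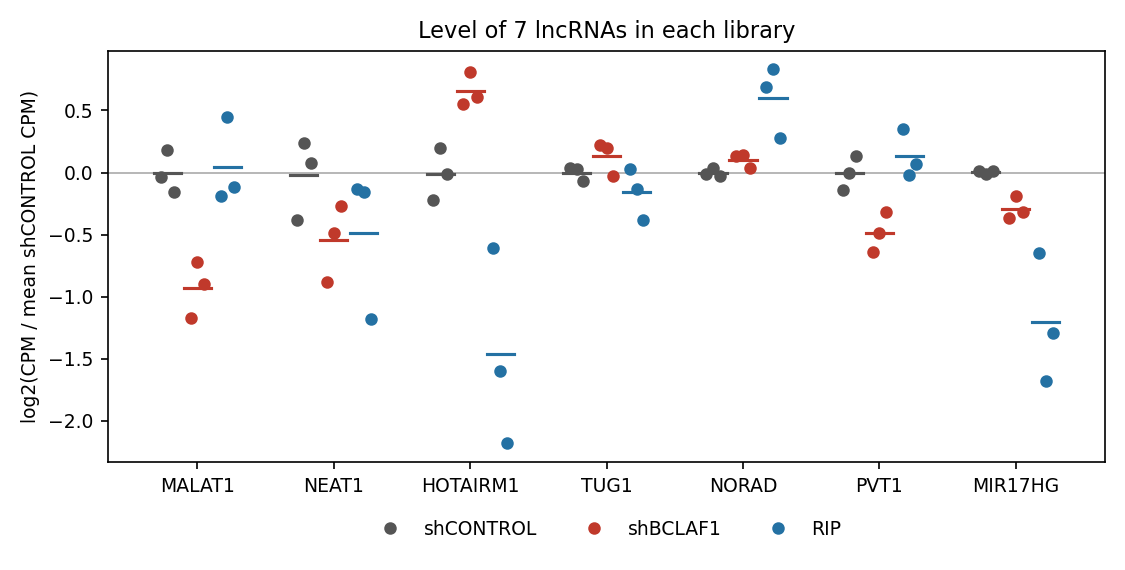
Level of 7 lncRNAs in each library, as the log2 ratio of its CPM to the mean CPM of the 3 shCONTROL libraries; dots are libraries and short lines are group means. The shBCLAF1 libraries of MALAT1, PVT1 and MIR17HG lie under all controls and those of HOTAIRM1 above them, while in the RIP the NORAD libraries lie above and the HOTAIRM1 and MIR17HG libraries below all controls.

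MALAT1 (ENSG00000251562, chr11:65497738-65506516) measured 7168, 8339 and 6625 CPM in shCONTROL replicates 1, 2 and 3. In shBCLAF1 it measured 3288, 4490 and 3963 CPM. Every knock-down library lay under every control library, a log2 fold change of -0.91 (SE 0.14, edgeR adjusted p 0.00405), and 4.96% of all tested genes had a lower value. Leaving out any 1 library or changing the scaling, filter or tool kept the call, with log2 fold changes from -1.02 to -0.80. Ranked by counts, which also depend on gene length, MALAT1 stood at place 5, 4 and 5 in the controls, with 0.675% to 0.851% of all counts. It stood at place 10, 8 and 8 after knock-down, with 0.341% to 0.474%.

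In the RIP libraries MALAT1 measured 6450, 10070 and 6806 CPM. These values spread across the control range and beyond both ends of it, so the groups overlap. The log2 fold change was 0.07 (SE 0.22, adjusted p 0.804), and it turned to -0.17 without RIP replicate 2 and to -0.06 when libraries were scaled by total counts. By counts it stood at place 2, 2 and 3 of its libraries. The order of the groups was shBCLAF1, shCONTROL and RIP, with shBCLAF1 apart from the other two, which overlap.

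RIP replicate 1 also held 77685 counts of TALAM1, the antisense RNA annotated over 7205 bases of MALAT1, against 0 in the other 8 libraries. TALAM1 is known as a transcript that helps MALAT1 mature at its 3′ end. In that library TALAM1 made up 32.1% of the counts of the pair. The library kit is stranded, but whether counting used it is not given in the sources used here, so reads of the 2 genes cannot be told apart with certainty. With the counts of TALAM1 added to MALAT1, RIP replicate 1 held 0.938% of its counts in the pair, next to 0.902% and 0.623% in replicates 2 and 3, and the RIP log2 fold change was 0.25 (adjusted p 0.349).

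**Figure D2:**
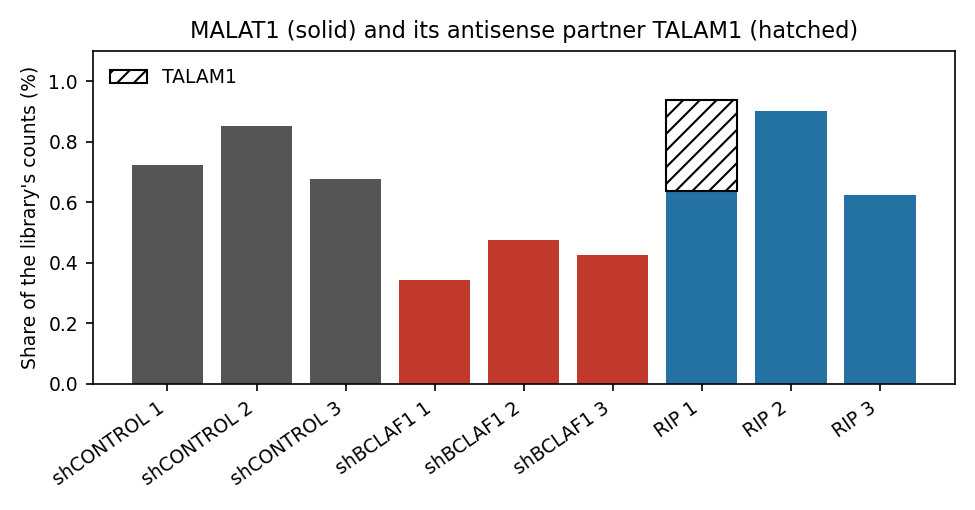
Share of each library's estimated counts held by MALAT1 (solid, coloured by group) and by its antisense partner TALAM1 (hatched), in percent. The shBCLAF1 bars, 0.341% to 0.474%, are lower than all others, and only RIP 1 has counts of TALAM1, on top of 0.637% for MALAT1.

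NEAT1 (ENSG00000245532, chr11:65422798-65445540), which ends 52197 bases before MALAT1 begins, measured 412, 632 and 567 CPM in shCONTROL. It measured 291, 382 and 445 CPM in shBCLAF1. The shCONTROL replicate 1 library was low and shBCLAF1 replicate 3 high, so that the groups overlap, and the log2 fold change of -0.52 (SE 0.21) did not pass (edgeR adjusted p 0.109). In the RIP it measured 492, 481 and 236 CPM, with replicate 3 far below the other two, and the log2 fold change was -0.42 (SE 0.32, adjusted p 0.319), or -0.14 without that library. The 3 groups overlap with one another in order of level, from shBCLAF1 over RIP to shCONTROL. Its coefficient of variation was 21.1% in shCONTROL, 20.8% after knock-down and 35.8% in RIP libraries, against 11.9%, 15.4% and 25.7% for MALAT1.

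The number of NEAT1 counts per MALAT1 count does not depend on scaling between libraries. It was 0.0574, 0.0758 and 0.0856 in shCONTROL and 0.0885, 0.085 and 0.112 in shBCLAF1, where 1 value lay within the control range. The difference of 0.39 on the log2 scale had an exact two-sided permutation p of 0.2 (n = 3 each), where 3 against 3 cannot give less than 0.1. In the RIP the ratio was 0.0763, 0.0477 and 0.0347, a difference of -0.52 (exact permutation p 0.3). The difference was 0.23 after knock-down without shCONTROL replicate 1, and in the RIP -0.82 without RIP replicate 1 and -0.25 without RIP replicate 3. Since the design cannot pass a threshold of 0.05, these ratios are a description.

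MIAT (ENSG00000225783, chr22:26646429-26676478) was at 0 in all 9 libraries. Its neighbour MIATNB, which shares part of its locus and was chosen after its values were seen, held 118 to 132 counts per control library, 154 to 182 per knock-down library and 69 to 74 per RIP library. Its log2 fold change of 0.37 after knock-down (adjusted p 0.0809) and of -0.46 in the RIP (adjusted p 0.0894) did not pass. A 0 in this table is not proof of few reads: in shCONTROL 165 genes had 0 counts in 1 library and at least 100 in another, and 175 did so in shBCLAF1 and 226 in the RIP.

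KCNQ1OT1 (ENSG00000269821, chr11:2608328-2699994), an antisense transcript within KCNQ1, had 20 counts in shBCLAF1 replicate 2, or 0.529 CPM, and 0 in the other 8 libraries. KCNQ1, a potassium channel gene whose locus contains it, measured 9.09, 5.33 and 6.48 CPM in shCONTROL and 8.36, 6.29 and 9.3 in shBCLAF1, which overlap. In the RIP KCNQ1 measured 10.9, 14.1 and 14 CPM, above every control library (log2 fold change 0.90, SE 0.24, edgeR adjusted p 0.0227). Reads of the overlapping pair cannot be assigned with certainty without knowing how strand was used.

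HOTAIRM1 (ENSG00000233429, chr7:27096094-27100258) was thinly covered, with 13 to 135 counts per library. It measured 1.76, 2.34 and 2.03 CPM in shCONTROL. It rose to 3, 3.57 and 3.11 CPM in shBCLAF1, above every control, with a log2 fold change of 0.66 (SE 0.16, edgeR adjusted p 0.0235) that 91.6% of tested genes did not reach. The call was lost without shCONTROL replicate 1 (adjusted p 0.0654) or 3 (0.0701), without shBCLAF1 replicate 2 (0.077) and in the fit of all 9 libraries (0.297). The summed markers of leukaemia cells were also higher in shBCLAF1, at 3416 to 3820 CPM against 1672 to 1775, and their part in this result was not tested. The sum does not stand for each marker, since of the 9 with counts 3 were higher, 3 lower and 3 not past the threshold after knock-down, with LYZ (chosen after its values were seen) at 1.86 on the log2 scale.

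In the RIP HOTAIRM1 measured 1.33, 0.672 and 0.451 CPM, or 34, 19 and 13 counts. All 3 values lie under the lowest control, with replicate 1 the highest. The log2 fold change of -1.32 (SE 0.45) narrowly missed the threshold (adjusted p 0.0511), and it was -1.86 without RIP replicate 1 (adjusted p 0.00918). The groups stood in the order RIP, shCONTROL and shBCLAF1, each apart from the next.

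HOXA3, a homeobox gene of the same cluster, fell from 11.4 ± 0.602 to 3.98 ± 0.904 CPM after knock-down (means ± SD of 3 libraries; log2 fold change -1.51, edgeR adjusted p 0.00194). In the RIP its log2 fold change of 0.80 (SE 0.36) did not pass (edgeR adjusted p 0.117).

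TUG1 (ENSG00000253352, chr22:30969265-30979395), which RefSeq also annotates as coding for a protein, was the most even of the 7 genes across groups. It measured 248, 245 and 229 CPM in shCONTROL and 281, 276 and 236 in shBCLAF1. In RIP libraries it measured 246, 219 and 184 CPM. The log2 fold change was 0.14 after knock-down (SE 0.08, adjusted p 0.224) and -0.16 in the RIP (SE 0.13, edgeR adjusted p 0.338). Both comparisons overlap with the controls through a single library, shBCLAF1 replicate 3 and RIP replicate 1. Without shBCLAF1 replicate 3 the knock-down value was 0.22 and passed (adjusted p 0.019).

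NORAD (ENSG00000260032, chr20:36045618-36050960), which holds many binding sites for PUM2 and related proteins, had the highest RIP fold change of the 7. It measured 237, 244 and 234 CPM in shCONTROL, a coefficient of variation of 2.32%. In the RIP it measured 385, 423 and 289 CPM. All RIP libraries lay above all controls, with replicate 3 the lowest, and the log2 fold change was 0.62 (SE 0.16, edgeR adjusted p 0.0192). The call was lost when shCONTROL replicate 1, 2 or 3 was left out (adjusted p 0.0688, 0.0642 and 0.0728), with nearly the same fold change (0.60 to 0.63). The enrichment was smaller than that of BCLAF1 mRNA, at 1.74, and 74.3% of tested genes had a lower value than NORAD.

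After knock-down NORAD measured 260, 262 and 244 CPM. The lowest of these lay just above the highest control, the 2 being equal to 3 digits, and the log2 fold change of 0.11 (SE 0.04) did not pass (adjusted p 0.112). It passed without shBCLAF1 replicate 3 (0.14, adjusted p 0.0321) and under total counts (0.16, adjusted p 0.0209). The groups stood in the order shCONTROL, shBCLAF1 and RIP, without overlap.

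PVT1 (ENSG00000249859), on chromosome 8 and 51572 bases from MYC, measured 158, 174 and 190 CPM in shCONTROL. It fell to 112, 124 and 139 CPM in shBCLAF1, all under the lowest control, with a log2 fold change of -0.47 (SE 0.10, edgeR adjusted p 0.0152). The call was lost without shCONTROL replicate 2 (adjusted p 0.0542) or 3 (0.0583) and without shBCLAF1 replicate 2 (0.0526). In the RIP it measured 222, 172 and 183 CPM, which overlaps with the controls (log2 fold change 0.14, SE 0.13, adjusted p 0.409).

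MYC, a transcription factor that drives growth in many leukaemias, fell further than PVT1. It measured 688, 663 and 687 CPM in shCONTROL and 375, 361 and 370 in shBCLAF1, a log2 fold change of -0.88 (SE 0.03, edgeR adjusted p 9.73e-05). PVT1 counts per MYC count were 0.229, 0.263 and 0.277 in shCONTROL and 0.299, 0.345 and 0.376 in shBCLAF1. The ratio was thus higher in every knock-down library, by 0.40 on the log2 scale, with the smallest exact permutation p that this design allows (0.1). In the RIP the ratio was 0.264, 0.15 and 0.222, which overlaps with the controls (difference -0.31, exact permutation p 0.3). The difference was -0.49 without RIP replicate 1 and -0.08 without RIP replicate 2. MYC itself did not pass there, at 0.46 on the log2 scale (adjusted p 0.0564).

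**Figure D3:**
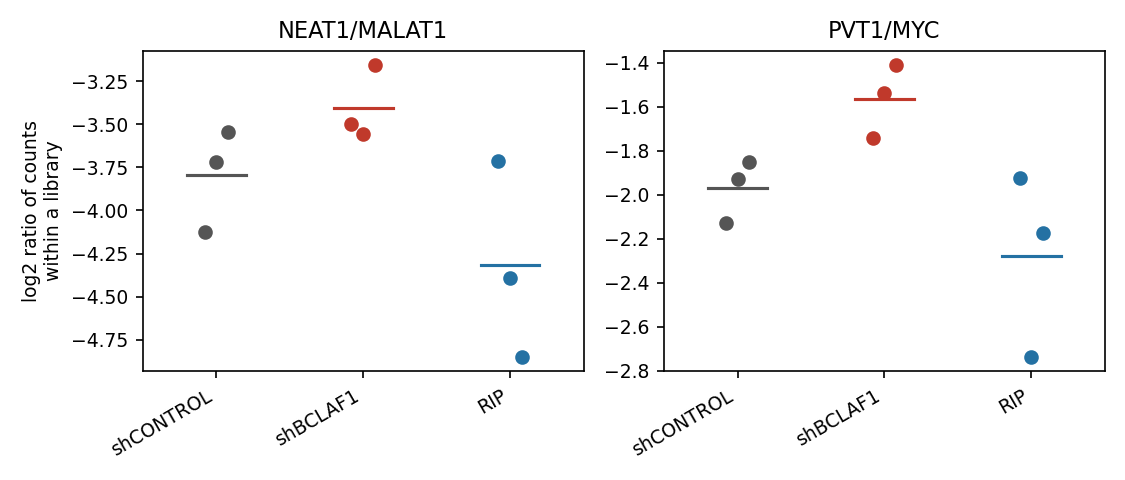
Log2 ratio of the counts of 2 genes within each library for 2 pairs of neighbouring genes; dots are libraries and short lines are group means, and each panel has its own vertical axis. In shBCLAF1 all 3 PVT1/MYC ratios lie above all control ratios, and the other comparisons overlap with the controls.

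MIR17HG (ENSG00000215417), the host of the microRNAs whose seeds are given above, was the only one of the 7 to pass in both comparisons. It measured 106, 105 and 106 CPM in shCONTROL, the narrowest spread of the 7 there, with a coefficient of variation of 0.819%. It fell to 81.6, 92.9 and 85 CPM in shBCLAF1, a log2 fold change of -0.29 (SE 0.06, edgeR adjusted p 0.0107). This call was lost without shCONTROL replicate 1 (adjusted p 0.0525) or 3 (0.0508) and in the fit of all 9 libraries, where the spread is shared with the RIP (0.479).

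In the RIP MIR17HG was depleted, at 67.6, 32.9 and 43.3 CPM. Every RIP library lay under every shBCLAF1 library too, and replicate 1 was the highest. The log2 fold change was -1.15 (SE 0.25, adjusted p 0.0112), it ran from -1.47 to -0.94 over 15 alternatives, and the call held in all of them. It is the 1 gene of the 7 that passed with a log2 fold change below -1.

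**Figure D4:**
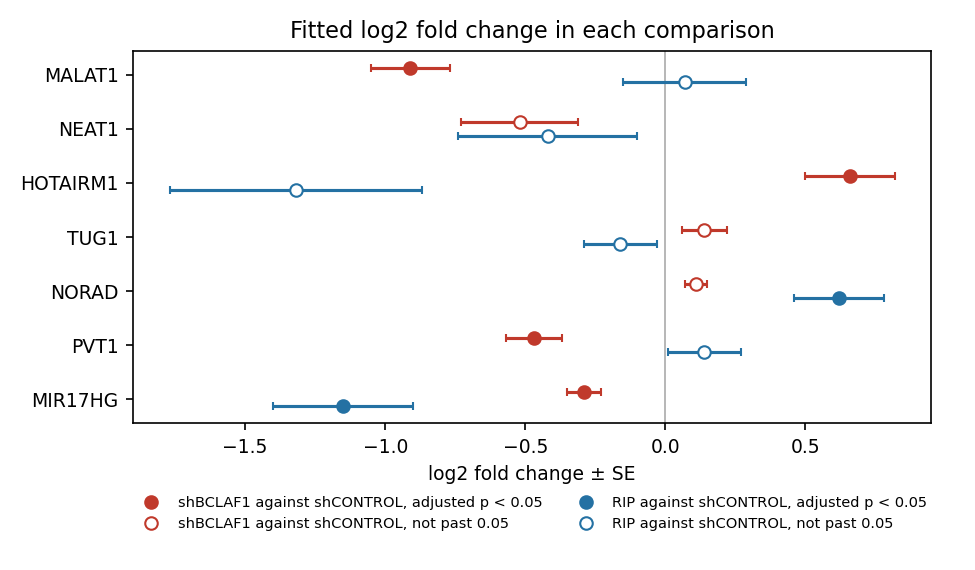
Fitted log2 fold change of 7 lncRNAs, with bars of 1 standard error, for shBCLAF1 (red) and RIP (blue) against the same shCONTROL libraries; filled points have an adjusted p under 0.05. MIR17HG is filled and negative in both, at -0.29 and -1.15, and NORAD has the highest RIP value, 0.62.

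The proteins that build paraspeckles around NEAT1 were measured through their mRNAs. The counts of this list and of those that follow stand beside 15.5% of all tested genes higher and 16.9% lower after knock-down, and 24.6% and 24.7% in the RIP. Among protein-coding genes alone these shares were 20.3% and 21.1% after knock-down and 28.8% and 28.1% in the RIP. Of 16 such genes, 9 (56.2%) fell and 1 (6.25%) rose after knock-down, with a median log2 fold change of -0.19 beside 0.02 over all genes. NONO, a core paraspeckle protein, fell from 448 ± 14.4 to 333 ± 5.59 CPM (means ± SD of 3 libraries; log2 fold change -0.42, edgeR adjusted p 6.17e-04). RBMX fell by 0.32 and NUDT21, a cleavage factor subunit, by 0.38 on the log2 scale, while PSPC1, the paralogue of NONO, rose by 0.22. In the RIP 7 (43.8%) of the 16 were higher and 4 (25%) lower (median -0.04). PSPC1, CPSF6 and NONO had log2 fold changes of 1.41, 1.26 and 1.23, and NUDT21 and RBM14 had -1.87 and -1.02.

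Of 13 genes for proteins of nuclear speckles, the home of MALAT1, 2 rose and 3 fell after knock-down, with a median of -0.08. ACIN1 and SRRM1 rose by 0.12 and 0.21 and the splicing factor SRSF1 fell by 0.21 on the log2 scale, as did CDK12 and RNPS1 by 0.19 each. In the RIP 8 were higher and 1 lower, with a median of 0.76 beside -0.05 over all genes. SRRM1 went from 188 ± 11.9 to 577 ± 25.7 CPM (means ± SD of 3 libraries; log2 fold change 1.61, edgeR adjusted p 2.38e-04), CCNL2 had 0.83 and ACIN1 0.82, while SRSF2 had -0.50. SON, a scaffold of speckles, had 0.06 after knock-down (adjusted p 0.254) and -0.05 in the RIP (adjusted p 0.78).

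MALAT1 gets its 3′ end from RNase P, and a triple helix that METTL16 binds protects it. Of 12 genes for RNase P proteins, the tRNA 3′ endonuclease ELAC2 and METTL16, 1 rose and 1 fell after knock-down, namely POP5 (0.25, adjusted p 0.0488) and POP1 (-0.48, edgeR adjusted p 0.00386). In the RIP 2 were higher, RPP38 (1.38) and POP4 (0.91), and 3 lower, RPP40 (-1.84), RPP14 (-0.91) and ELAC2 (-0.62). METTL16 passed in neither.

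Of 18 genes of the nuclear exosome and its adaptors, which degrade many nuclear noncoding RNAs, 6 (33.3%) fell and 1 (5.56%) rose after knock-down. The helicase MTREX fell by 0.36, EXOSC1 by 0.60 and EXOSC8 by 0.48 on the log2 scale, and RBM7 rose by 0.38. In the RIP 6 (33.3%) were higher and 7 (38.9%) lower. EXOSC10, a catalytic subunit, went from 109 ± 5.3 to 334 ± 74.2 CPM (means ± SD of 3 libraries). Its log2 fold change was 1.60 (edgeR adjusted p 7.78e-04), and EXOSC4 had -1.72.

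Of 4 proteins known to bind NORAD, only RBMX passed after knock-down, and PUM2, a repressor of translation, had a log2 fold change of -0.02 (edgeR adjusted p 0.802). In the RIP the mRNA of KHDRBS1 was lower (-1.71, edgeR adjusted p 2.88e-04), and PUM2 had -0.07 (edgeR adjusted p 0.455).

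Of 12 genes for making and using microRNAs, AGO2 fell from 592 ± 16.7 to 390 ± 25 CPM after knock-down (means ± SD of 3 libraries; log2 fold change -0.60, edgeR adjusted p 7.86e-04). XPO5, the exporter of microRNA precursors, fell by 0.43 and AGO1 rose by 0.18, and the other 9 did not pass. Among these, DICER1 (5033, 1016 and 994 counts in shBCLAF1) and TNRC6C (1139, 248 and 1052) varied widely between libraries. In the RIP the mRNA of DROSHA, the nuclease that cuts primary microRNA transcripts, was higher (1.66, SE 0.12, edgeR adjusted p 2.99e-04). TNRC6A (1.72) and DICER1 (0.93) were higher too, and the other 9 did not pass.

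Of 11 known targets of the miR-17-92 microRNAs, 1 rose and 2 fell after knock-down, with a median log2 fold change of -0.01. The cell-cycle inhibitor CDKN1A rose from 168 ± 8.41 to 217 ± 7.71 CPM (means ± SD of 3 libraries; log2 fold change 0.37, edgeR adjusted p 0.0029), and E2F1 fell by 0.31. THBS1 fell from 7.86 ± 0.402 CPM to 0 in all 3 shBCLAF1 libraries. That is at least 98.2-fold if each 0 stood for at most 3 counts, which a 0 here does not prove. BCL2L11, which promotes cell death, had 0.06 (adjusted p 0.644). In the RIP 6 of the 11 were lower and 1 higher, with a median of -0.40, among them BCL2L11 (-0.98) and E2F1 (-0.40), against HIF1A (0.38).

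Of 11 genes of PRC2 and the histone methyltransferase G9a, partners through which chromatin lncRNAs are thought to act, 2 (18.2%) rose and 3 (27.3%) fell after knock-down, shares near those of protein-coding genes. JARID2 rose by 0.54 and MTF2 by 0.25, and EZH1 fell by 0.59, SUZ12 by 0.26 and PHF19 by 0.15 on the log2 scale. In the RIP 6 were higher and none lower, with a median of 0.48. EZH2, the catalytic subunit, went from 79.6 ± 5.4 to 200 ± 38.2 CPM (means ± SD of 3 libraries; log2 fold change 1.32, edgeR adjusted p 0.00105), and EZH1 had 1.27.

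**Figure D5:**
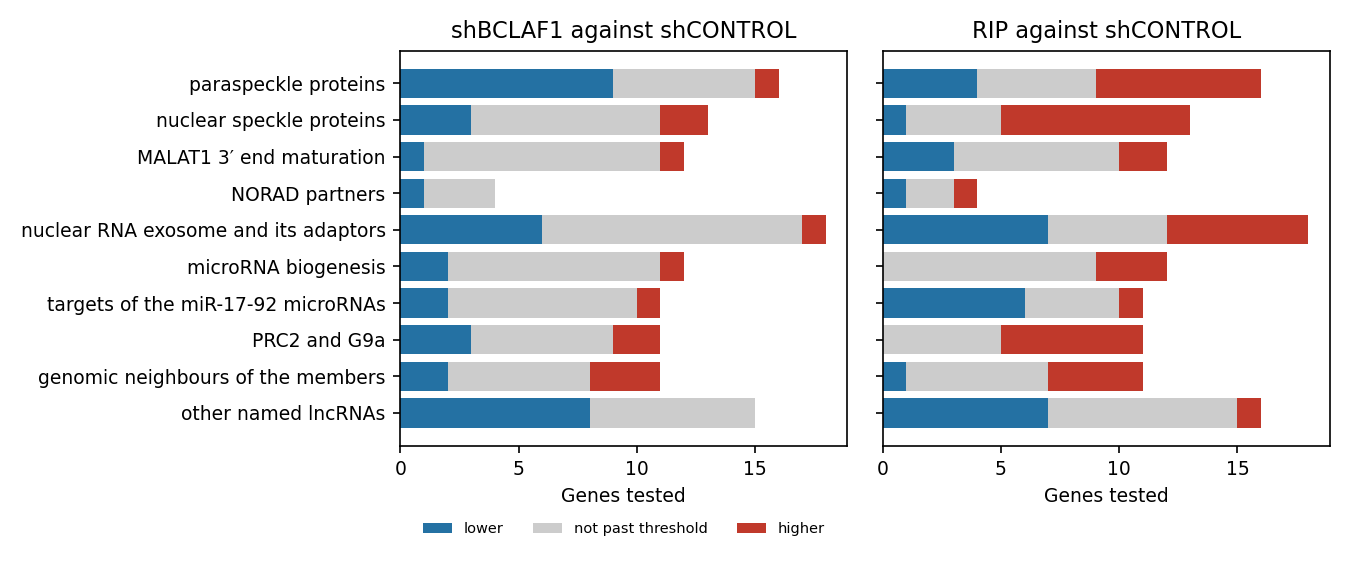
Number of tested genes in each of 10 companion lists that were lower (blue), higher (red) or not past the threshold (grey) at an adjusted p under 0.05, for shBCLAF1 (left) and RIP (right) against shCONTROL. The paraspeckle list has 9 lower and 1 higher after knock-down, and the nuclear speckle list 8 higher and 1 lower in the RIP.

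Among 15 neighbours of the 9 genes, 11 were tested. After knock-down 3 rose, PHLDA2 (1.68), SLC22A18 (0.78) and FRMD8 (0.37), and MYC and HOXA3 fell. PHLDA2 and SLC22A18 lie in the imprinted domain of KCNQ1OT1, and PHLDA2 went from 4.15 ± 0.172 to 13.2 ± 1.43 CPM (means ± SD of 3 libraries; edgeR adjusted p 2.88e-04). CDKN1C, the best-known gene silenced by KCNQ1OT1, had -0.09 with an SE of 1.53 (adjusted p 0.971). In the RIP 4 were higher, among them NAP1L4 (1.07), PHLDA2 (1.49) and KCNQ1, and FRMD8 (-0.35) was lower, with a median of 0.80. GPC5 and EPB41L1, the neighbours set beside MIR17HG and NORAD, were at 0 in all libraries, so their ratios could not be formed.

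Of 24 other named lncRNAs, 23 were in the table and 15 were tested after knock-down, where 8 fell and none rose (median -0.28). LINC-PINT, a p53-induced transcript, fell from 53.4 ± 1.9 to 27.1 ± 2.91 CPM (means ± SD of 3 libraries; log2 fold change -0.98, edgeR adjusted p 6.20e-04). GAS5, a snoRNA host, fell by 0.53 and EPB41L4A-AS1 by 0.69 on the log2 scale. In the RIP 16 were tested, of which 7 were lower and 1 higher (median -0.65). TERC, the RNA of telomerase, had -1.71, and DLEU1 and DLEU2 had -1.06 and -1.05. LUCAT1, at 0 in shCONTROL, measured 1.92 ± 0.49 CPM in the RIP (SD, n = 3). That is at least 22.4-fold higher if each 0 stood for at most 3 counts, which a 0 here does not prove. Over all 1049 genes that RefSeq classes as lncRNA and that were tested after knock-down, 9.91% were higher and 11.5% lower. In the RIP 18.4% of 1048 were higher and 17.3% lower. The named lncRNAs were not matched to these genes by level. Protein-coding genes had larger shares, 20.3% higher and 21.1% lower after knock-down.

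Of the microRNA hairpins within MIR17HG and PVT1, 3 of 11 had rows in the table and none passed the filter on low counts. MIR1205, a hairpin of the PVT1 locus, held 5, 6 and 7 counts in shCONTROL, 4, 5 and 8 after knock-down and 2, 2 and 2 in RIP libraries. These values are too close to the limit of 3 counts to compare.

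The genes whose log2 CPM followed each lncRNA most closely over the 9 libraries, among 9464 genes with a symbol, a mean of at least 10 CPM and no library at 0, were found by Pearson's r as a description. The 9 points share libraries, depth and the 3 groups, so they are not independent. For MALAT1 they were DACT3 (r = 0.986) and SIAH2 (0.968), for NEAT1 POLR1HASP (0.977) and TSC22D1 (0.958), and for HOTAIRM1 MIRLET7A1HG (0.989), itself a microRNA host, and VPS37A (0.987). For TUG1 they were GSK3B (0.952) and POLR3F (0.935), for NORAD PHF12 (0.991) and TRAK1 (0.99), for PVT1 GRB10 (0.953) and CREBZF (0.951), and for MIR17HG FAR2 (0.991) and TMA16 (0.99).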

How the data were processed

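The table deposited by the authors holds estimated counts (expected counts) per gene for 9 libraries, whole numbers with no normalization. The submitters' processing notes name STAR 2.7.11b, StringTie 2.2.3 and hg38, with no roles; annotation and settings are not given in the sources used here. An entry naming no gene held 2.18% to 3.75% of counts in 8 libraries, had no value in RIP replicate 1, and was left out. Each comparison was fitted on its own 6 libraries with edgeR 4.0.16 in R 4.3.3, with group as the only term. The low-count filter and prior count were edgeR's defaults, scaling was by TMM, and the test was the quasi-likelihood F-test. Benjamini-Hochberg adjustment was over all genes tested, with a threshold of 0.05. Standard errors came from the coefficient and its F statistic. Levels are CPM with TMM factors over all 9 libraries. DESeq2 1.42.0 was an alternative, as were other scalings, filters, fits and each library left out. Ratios of 2 genes used an exact two-sided permutation test. The 9 genes and the companion lists were chosen with earlier results of these data known, so lists were counted and not tested. Named by rule were all 9 genes, BCLAF1, THRAP3, the ratio partners, of each list up to 3 genes passing in each direction by smallest adjusted p, and for each lncRNA the 2 genes nearest in pattern; other genes were chosen after their values were seen. Sequences are from RefSeq (GRCh38.p14), which matched 5 of the 9 genes for promoters and all 6 microRNAs. Some genes that this rule names are not reported here.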

Additional observations from a re-analysis of the deposited data

How the results depend on the processing

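All alternatives kept the direction of every knock-down log2 fold change of the 7 tested lncRNAs. In the RIP only MALAT1 reversed, to -0.06 under total counts and to -0.17 without RIP replicate 2 (leaving out 1 library gave -0.17 to 0.19); the cause was not tested, and total counts moved the median of all genes from -0.05 to -0.17. In 1 fit of all 9 libraries, which shares the spread with the RIP, 1129 genes were higher and 1318 lower after knock-down. In that fit 0 of the 7 lncRNAs were higher (0 also at an unadjusted p under 0.05), and 3 and 16 list genes were higher and lower. DESeq2, run on the 6 libraries of the comparison, gave 1 lncRNA higher. Leaving out 1 library gave 0 to 3 lncRNAs higher and 1 to 3 lower after knock-down, 0 to 1 higher and 1 to 2 lower in the RIP, 7 to 14 list genes higher after knock-down and 19 to 33 lower in the RIP. Total counts gave 2 lncRNAs higher after knock-down. Asking for a log2 fold change of 1 or more, 1853 genes were higher and 2281 lower in the RIP, and 0 of the 7 lncRNAs were higher. Set against the mean of shCONTROL and shBCLAF1, 3 lncRNAs were higher and 2 lower in the RIP, with MALAT1 at 0.53 (adjusted p 0.0283) and PVT1 at 0.38 (adjusted p 0.0159). HOTAIRM1 joined the lower genes of the RIP, making 2, under DESeq2, RLE size factors, the fit of all 9 libraries and among genes above 0 in all 9 libraries, an alternative added after seeing the data, as was the sum of MALAT1 and TALAM1.

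Same-numbered libraries of different groups hardly deviated together (r from -0.0345 to 0.0772), which does not exclude that they were paired. As a hint from the data, each shCONTROL and shBCLAF1 library correlated best with the one of its own number, which did not hold for the RIP. With the replicate number as a block, 2271 genes were higher and 2538 lower after knock-down and 3244 and 3262 in the RIP, and NEAT1 passed after knock-down (-0.52, adjusted p 0.0206). Depth limits HOTAIRM1, at 13 to 135 counts per library, MIAT, KCNQ1OT1 and the hairpins.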
